A study of Mus musculus with 12 samples.

Results

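Major histocompatibility complex (MHC) class I was followed in CD4+ T cells as 10 genes, of 35275 in the table of expression values: the heavy chains H2-K1, H2-D1, H2-Q2, H2-Q4, H2-Q6, H2-Q7, H2-T22 and H2-T23, the light chain B2m and the peptide transporter subunit Tap1. The 10 genes were chosen by name as class I genes. H2-Q2 was included because its FPKM fell in treated B6 mice, so the treatment comparison in B6 chose a member and is given for all 10 genes as a description, without a test. For H2-Q2 the strain comparisons, which use those B6 mice, are likewise described without a test. All 10 genes were found, and all 10 passed the filter on low values, which kept 13115 genes.

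Each of the 12 libraries came from CD4+ T cells of a single female mouse, and there were 4 groups of 3 mice: untreated B6, B6 given anti-CD45RB, untreated SLE123, and SLE123 given anti-CD45RB. B6 is C57BL/6, and SLE123 is a congenic line on that background carrying the Sle1, Sle2 and Sle3 lupus susceptibility regions of NZM2410. The study's methods give the MHC type of both strains as H-2b. Treated mice received 5 intraperitoneal injections of 100 μg of the antibody MB23G2, which binds the CD45RB form of the phosphatase CD45, from day 0 to day 7, and untreated mice received none. Mice were 9 to 12 weeks old by the study's figure legend and 9 weeks old by its methods. The cells were enriched by negative magnetic selection, which removes other cells but leaves the ones it misses. The study's methods also name a later sort into CD25+ and CD25- cells, while the labels name no such fraction, so whether the libraries hold all CD4+ cells or 1 of these fractions is not known here. The p-values measure the spread between single mice of 1 experiment.

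Class I molecules are cell surface proteins built from a heavy chain, β2-microglobulin and a short peptide. The proteasome cuts peptides in the cytosol, the transporter TAP moves them into the endoplasmic reticulum, and a loading complex fits them into the groove. The classical molecules H2-K and H2-D show peptides to CD8+ T cells on nearly every nucleated cell. The nonclassical molecules of the Q and T regions vary less between strains, and several are read by receptors of natural killer cells and of specialised T cells. Heavy chain genes arose by duplication and are alike in sequence, so short reads can fit more than one of them.

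All 8 heavy chain genes lie on chromosome 17, which also holds Tap1, while B2m lies on chromosome 2 (122147686 to 122153083, plus strand; GRCm38, GENCODE M21). H2-K1 (33996017 to 34000347, minus strand) and Tap1 (34187553 to 34197225, plus strand) come first. H2-D1 (35262730 to 35267499), H2-Q2 (35342242 to 35346762), H2-Q4 (35379617 to 35385290), H2-Q6 (35424850 to 35430055) and H2-Q7 (35439155 to 35443773) follow on the plus strand. H2-T23 (36029773 to 36032855) and H2-T22 (36037128 to 36042747) are on the minus strand. Tap1 overlaps the start of Psmb9 (34181987 to 34187764), which is read in the opposite direction, and whether fragments were counted by strand is not given in the sources used here.

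The sequences before the start of transcription differed among the members. The promoters of H2-K1, H2-Q6 and H2-Q7 are shown with those of H2-Q2, the member with the lowest level, and B2m. They are RefSeq promoter sequences of GRCm38.p6, read 5′ to 3′ along the gene and ending at the base before the first start in either RefSeq or GENCODE. For H2-K1 the start that the annotations share was used. Capitals mark 4 short motifs on either strand: GGGATTNCC (with N for any base, the core of the class I enhancer bound by NF-κB), TTTCACTT (the core of the class I interferon response element), TGACG (a core part of a cyclic AMP response element) and CCAAT (the box bound by NF-Y).

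H2-K1, chr17:34000348-34000597, minus strand: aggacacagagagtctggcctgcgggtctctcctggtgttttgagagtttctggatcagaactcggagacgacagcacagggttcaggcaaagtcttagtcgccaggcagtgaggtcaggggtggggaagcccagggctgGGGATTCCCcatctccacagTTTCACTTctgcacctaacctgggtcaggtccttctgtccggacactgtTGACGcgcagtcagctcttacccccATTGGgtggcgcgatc
H2-Q6, chr17:35424600-35424849, plus strand: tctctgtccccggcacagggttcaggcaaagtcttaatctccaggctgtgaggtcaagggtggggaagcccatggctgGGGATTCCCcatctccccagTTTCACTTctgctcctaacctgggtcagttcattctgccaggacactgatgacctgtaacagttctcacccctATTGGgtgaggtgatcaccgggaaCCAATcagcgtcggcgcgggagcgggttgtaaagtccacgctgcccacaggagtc
H2-Q7, chr17:35438905-35439154, plus strand: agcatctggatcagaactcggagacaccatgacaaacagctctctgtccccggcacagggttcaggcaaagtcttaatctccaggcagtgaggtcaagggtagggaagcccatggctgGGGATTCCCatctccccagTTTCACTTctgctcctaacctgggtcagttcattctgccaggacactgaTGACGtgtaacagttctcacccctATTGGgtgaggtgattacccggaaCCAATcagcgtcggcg
H2-Q2, chr17:35342057-35342241, plus strand: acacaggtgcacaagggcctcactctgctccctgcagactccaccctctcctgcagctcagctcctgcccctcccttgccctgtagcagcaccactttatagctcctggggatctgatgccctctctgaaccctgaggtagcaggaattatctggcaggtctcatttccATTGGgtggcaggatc
B2m, chr2:122147437-122147685, plus strand: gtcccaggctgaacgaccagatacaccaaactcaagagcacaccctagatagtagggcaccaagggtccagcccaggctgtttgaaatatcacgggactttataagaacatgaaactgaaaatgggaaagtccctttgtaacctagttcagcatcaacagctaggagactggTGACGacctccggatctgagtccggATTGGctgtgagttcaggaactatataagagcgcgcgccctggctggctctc

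In the 250 bases before the RefSeq start, GGGATTNCC was present in 5 of the 10 members (H2-K1, H2-D1, H2-Q4, H2-Q6 and H2-Q7) and in 0.855% of all 27025 promoters in the table. TTTCACTT was present in those 5 and in H2-T22, and in 1.44% of all promoters. TGACG was found in 7 members and 17.9% of promoters, and CCAAT in all 10 members and 34.5% of promoters. H2-Q2 held neither GGGATTNCC nor TTTCACTT, and nor did H2-T23, B2m or Tap1. H2-Q6 held both of these but no TGACG, whereas H2-Q7 held all 4 motifs. A match says only that the letters are in this window, and the data hold no measure of binding.

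Heavy chain sequences overlapped enough to bear on how fragments were assigned. Between H2-Q6 and H2-Q7, 936 of 981 aligned coding bases were identical (95.4%), the closest pair among the 8 heavy chains. The most distant pair was H2-K1 and H2-T22 (75.4%). Of all stretches of 100 bases in the longest annotated transcript, 10.8% in H2-Q6 and 13.5% in H2-Q7 also occurred unchanged in the transcript of another gene. The main partner was H2-Q7 for H2-Q6 (8.36%) and H2-Q10 for H2-Q7 (6.57%). The share was 9.38% in H2-T22, where H2-T10 was the main partner, 4.64% in H2-D1, 3.93% in H2-T23 and 2.24% in H2-Q4. It was 0 in H2-K1, H2-Q2, B2m and Tap1. With stretches of 50 bases, the shares rose to 32.0% in H2-Q6, 28.4% in H2-Q7, 35.8% in H2-T22, 22% in H2-Q4, 14.3% in H2-D1, 15% in H2-T23, 8.74% in H2-Q2, 8.11% in H2-K1 and 0.647% in Tap1, while B2m stayed at 0.

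Coding positions 76 to 135, counted from the A of the start codon, show the 60 aligned bases at which H2-Q6 and H2-Q7 differ most, with the 10 differing bases in capitals out of 45 in the whole alignment. Such stretches are what a read must cover to be placed in one gene rather than the other.

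H2-Q6: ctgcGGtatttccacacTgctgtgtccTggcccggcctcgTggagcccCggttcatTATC
H2-Q7: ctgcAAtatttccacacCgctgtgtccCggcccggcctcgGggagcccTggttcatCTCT

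How reads that fit several places were counted is not given in the sources used here, so values of H2-Q6, H2-Q7, H2-Q4 and H2-T22 can hold fragments of their relatives. H2-Q8 and H2-Q9, which some annotations place beside these genes, were not analysed here.

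Libraries held 13562933 to 23641603 fragments with a median of 16827791. A count of 3 fragments on a transcript of 2000 bases was worth 0.0634 to 0.111 FPKM, far below every value of a member. The T cell markers Cd3d, Cd3e, Cd3g, Cd4, Lck, Cd5 and Cd28 summed to between 1654 and 2103 FPKM in the 12 libraries, which matches the T cell label. Of the CD8 T cell markers, Cd8a was at 0.0855 to 1.92 FPKM, with 0.159 to 0.257 in untreated and 0.644 to 1.92 in treated B6. Cd8b1 was higher, at 10.9 to 17.4 FPKM in B6 and 3.88 to 7.33 in SLE123. Other cells left RNA in amounts that moved with the groups. The class II antigen presentation genes H2-Aa, H2-Ab1, H2-Eb1 and Cd74 summed to 11.2 to 23.1 FPKM in untreated B6, 154 to 208 in treated B6, 170 to 286 in treated SLE123 and 279 to 1056 in untreated SLE123. The 4 plasma cell markers summed to 31.8 to 50.7, 60.4 to 157, 940 to 1727 and 1803 to 4708 FPKM in the same order, and immunoglobulin genes took 0.0895% to 0.336% of B6 fragments and 2.51% to 12.2% of SLE123 fragments, with untreated SLE123 replicate 3 at the top. Liver markers summed to 40.2 to 47.2 FPKM in the 6 B6 libraries and 44.9 in treated SLE123 replicate 1, against at most 0.368 in the other 5 SLE123 libraries. In RNA from mixed cells, fewer cells of a type and less RNA per cell cannot be told apart.

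The classical heavy chains were, with B2m, the most strongly expressed members. H2-K1, the heavy chain of H2-K, was at 2093, 2112 and 2151 FPKM in untreated B6, 2133, 2304 and 2194 in treated B6, 2239, 2819 and 2162 in untreated SLE123 and 2282, 2172 and 2202 in treated SLE123. The ranges of neighbouring groups overlapped, and 1 mouse, untreated SLE123 replicate 2, stood above the other 11. H2-D1, the heavy chain of H2-D, was at 1147, 1187 and 1215 FPKM in untreated B6, 1298, 1391 and 1326 in treated B6, 1314, 1674 and 1301 in untreated SLE123 and 1350, 1314 and 1326 in treated SLE123. Untreated B6 had the lowest H2-D1, below all mice of each other group, and the same SLE123 mouse had the highest.

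H2-Q2 and H2-Q6 varied most over the 12 mice, with highest values 5.87 and 2.92 times the lowest, beside 1.25 to 1.52 times for the other 8 members. H2-Q2, a little-studied nonclassical heavy chain, was at 3.0, 5.08 and 5.71 FPKM in untreated B6 but only 1.64, 1.45 and 1.65 in treated B6. In SLE123 it was at 7.0, 8.52 and 7.84 FPKM in untreated and 8.0, 7.91 and 7.60 in treated mice. Its groups were ordered treated B6, untreated B6 and then SLE123, whose treated and untreated mice overlapped. These levels rest on 28, 30 and 35 fragments in treated B6, 61, 116 and 116 in untreated B6 and between 146 and 234 in SLE123, so H2-Q2 was a trace transcript beside H2-K1.

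H2-Q6, one of the Q genes that encode the Qa-2 antigen, was at 192, 234 and 232 FPKM in untreated B6 and 213, 294 and 240 in treated B6. It reached 505, 560 and 500 FPKM in untreated SLE123 and 413, 442 and 452 in treated SLE123. The lowest SLE123 mouse was above the highest B6 mouse, and within SLE123 every treated mouse was below every untreated one. H2-Q7, another Qa-2 gene, was at 233, 254 and 277 FPKM in untreated B6, 233, 276 and 240 in treated B6, 334, 335 and 310 in untreated SLE123 and 322, 319 and 332 in treated SLE123. Here too all SLE123 mice were above all B6 mice, while treated and untreated mice overlapped in both strains. H2-Q4, which encodes Qb-1, ranged from 221 to 258 FPKM in B6 and from 231 to 296 in SLE123, with overlap.

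Among the T region genes, H2-T23, which encodes Qa-1, the ligand of the CD94-NKG2 receptors, was at 150, 150 and 158 FPKM in untreated B6, 162, 166 and 164 in treated B6, 188, 228 and 193 in untreated SLE123 and 194, 194 and 195 in treated SLE123. The SLE123 mice were above the B6 mice without overlap. H2-T22, a ligand of some γδ T cell receptors, ranged from 77.6 to 84.6 FPKM in B6 and from 79.5 to 96.8 in SLE123. These strain ranges overlapped.

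B2m, the light chain that every class I heavy chain needs to reach the surface, was at 1950, 1857 and 2048 FPKM in untreated B6, 1956, 2026 and 2023 in treated B6, 2379, 2642 and 2594 in untreated SLE123 and 2600, 2443 and 2370 in treated SLE123. Tap1, a subunit of the peptide transporter, was at 117, 116 and 118 FPKM in untreated B6, 111, 114 and 110 in treated B6, 137, 137 and 126 in untreated SLE123 and 145, 146 and 146 in treated SLE123. Both genes were higher in all SLE123 mice than in any B6 mouse, and Tap1 kept its 4 groups apart from one another. How many of all genes separate the strains in this way was not counted. In the strain tests, 42.9% of all genes were called in untreated and 52.1% in treated mice.

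**Figure D1:**
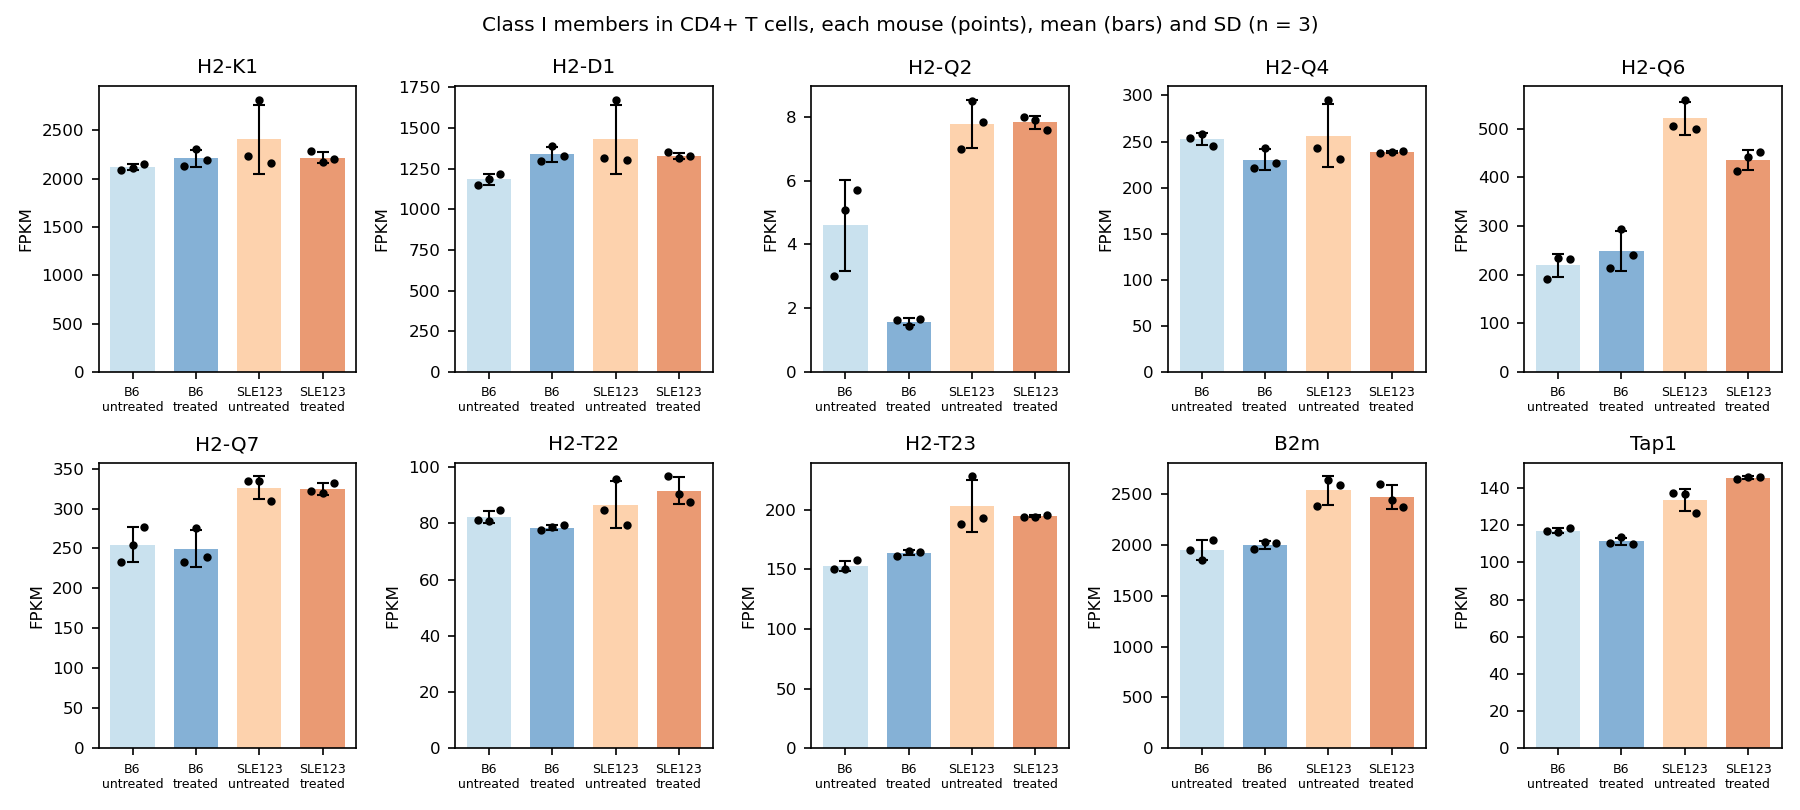
FPKM of the 10 class I genes on linear axes that start at 0, by strain and treatment, with points for the 3 mice of a group, bars for their mean and whiskers for the SD. H2-Q2 is lowest in treated B6, from 1.45 to 1.65 FPKM, and H2-Q6 runs from 192 to 294 FPKM in B6 and from 413 to 560 in SLE123.

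FPKM compares genes per length of transcript, and recovered lengths matched the longest annotated transcript, which for H2-K1, H2-Q4, H2-Q7, H2-T22, H2-T23 and Tap1 is one with a retained intron. The order of levels between genes therefore depends on those lengths. In untreated B6 the order by mean FPKM was H2-K1 (2119 ± 29.4, SD, n = 3), B2m (1952 ± 95.4), H2-D1 (1183 ± 34.4), H2-Q7 (255 ± 22.2), H2-Q4 (253 ± 6.36), H2-Q6 (219 ± 23.5), H2-T23 (153 ± 4.42), Tap1 (117 ± 1.17), H2-T22 (82.3 ± 2.04) and H2-Q2 (4.60 ± 1.42). H2-Q7 and H2-Q4 overlapped between mice, and the other neighbours in this order did not. In untreated SLE123, H2-Q6 (522 ± 33.5) was the third heavy chain, above H2-Q7 (326 ± 14.3) and H2-Q4 (256 ± 34.3).

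The first question was how anti-CD45RB moved class I in B6. H2-Q2 was at a mean of 1.58 ± 0.110 FPKM (SD, n = 3) in treated against 4.60 ± 1.42 in untreated mice, 0.344 times the level, with a log2(FPKM + 1) difference of -1.08 ± 0.19 (SE). The other 9 members differed by -0.13 to 0.18 on that scale. H2-D1 (0.18 ± 0.042) and H2-T23 (0.10 ± 0.031) were higher in all treated than in all untreated mice. H2-Q4 (-0.13 ± 0.042), H2-T22 (-0.067 ± 0.030), Tap1 (-0.071 ± 0.027) and H2-Q2 were lower in all of them. The values were 0.18 ± 0.13 for H2-Q6, 0.061 ± 0.043 for H2-K1, 0.038 ± 0.047 for B2m and -0.030 ± 0.083 for H2-Q7, with overlapping groups. So 2 of 10 members were higher without overlap, where 19.4% of all 13115 genes were. Another 4 were lower, where 18.6% of all genes were, but 1 of these 4 is H2-Q2, whose fall chose it. Adjusted p-values passed 0.05 for 14.9% of all genes in this comparison, which chose a member. With a pseudocount of 0.1 in place of 1, the difference of H2-Q2 was -1.44, because adding 1 shrinks changes of low values. The class II marker sum was 154 to 208 FPKM in treated against 11.2 to 23.1 in untreated B6, while the class I members other than H2-Q2 stayed within 1.14-fold by mean FPKM.

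In SLE123 the same treatment was not followed by a called change in any member. None of the 10 members passed an adjusted p of 0.05 (limma), and 0 of the 10 had an unadjusted p under 0.05, beside 1369 of all genes tested. Only 5 genes in all (0.0381%) were called in this comparison, and 3 with voom on recovered fragments, which also called 0 members. H2-Q2 was at 7.84 ± 0.207 FPKM in treated and 7.79 ± 0.762 in untreated mice, a log2 difference of 0.011 ± 0.093 (limma adjusted p = 0.966). H2-Q6 had the largest difference, with 436 ± 20.1 FPKM in treated and 522 ± 33.5 in untreated mice and a log2 difference of -0.26 ± 0.13 (limma adjusted p = 0.482), and it was 1 of 10 members lower without overlap, where 6.02% of all genes were. Tap1, at 146 ± 0.805 FPKM in treated and 133 ± 6.08 in untreated mice, had a difference of 0.13 ± 0.082 (limma adjusted p = 0.547) and was the 1 member higher without overlap, where 13.7% of all genes were. The difference between the strains in the effect of treatment was not tested.

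The second question was how the strains differed before treatment. H2-Q6 was at 522 ± 33.5 FPKM in untreated SLE123 and 219 ± 23.5 in untreated B6 (SD, n = 3), 2.38 times the level, with a log2 difference of 1.25 ± 0.12 (SE; limma adjusted p = 0.000252). H2-T23 (0.41 ± 0.10; limma adjusted p = 0.0161) and H2-Q7 (0.36 ± 0.11; limma adjusted p = 0.0289) were also higher in SLE123. These were 3 of the 9 members tested, all higher, where 42.9% of all genes were called and 22.8% were called higher, so their share was not far from that of all genes. B2m (0.38 ± 0.19; limma adjusted p = 0.138), Tap1 (0.19 ± 0.077; limma adjusted p = 0.0870), H2-D1 (0.26 ± 0.17; limma adjusted p = 0.244), H2-K1 (0.17 ± 0.20), H2-T22 (0.070 ± 0.090) and H2-Q4 (0.014 ± 0.12) did not pass. H2-Q2 stood at 7.79 ± 0.762 against 4.60 ± 1.42 FPKM, a log2 difference of 0.68 ± 0.20. The median difference of the 10 members was 0.31, beside -0.025 for all genes. This median includes H2-Q2, whose values in B6 chose it, so it is given as a description.

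Rescaling to TPM, which fixes the sum of all values in a library, moved the median of all genes in this comparison to -0.38, since the SLE123 libraries held more total FPKM. On that scale H2-Q6 was still called (0.87; limma adjusted p = 0.00253, with 7.37e-06 to 0.00296 over all alternatives), whereas H2-T23 (0.024) was not called and H2-Q7 (-0.023) changed sign. Relative to the median of all genes on each scale, H2-Q6 stood 1.28 above it by FPKM and 1.25 by TPM, H2-T23 0.43 and 0.40, and H2-Q7 0.38 and 0.36. The calls of H2-T23 and H2-Q7 were also lost without any 1 of the 3 untreated B6 mice, and that of H2-Q7 without untreated SLE123 replicate 1, while H2-Q6 was called in all 6 of these fits. Without untreated SLE123 replicate 3, the mouse with the most immunoglobulin and class II RNA, H2-Q6 differed by 1.28 and 4 members were called. Over the fits without 1 mouse, 3672 to 6469 of all 13115 genes were called. The count of members cannot be read apart from that background.

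The same comparison in treated mice called 6 of the 9 members tested, all higher in SLE123, where 52.1% of all genes were called and 29.6% were called higher. H2-Q6 was at 436 ± 20.1 against 249 ± 40.9 FPKM, 1.75 times the level (log2 difference 0.82 ± 0.11; limma adjusted p = 0.00108). Tap1 was at 146 ± 0.805 against 111 ± 1.97 FPKM (0.38 ± 0.032; limma adjusted p = 0.000155) and B2m at 2471 ± 118 against 2002 ± 39.4 (0.30 ± 0.058; limma adjusted p = 0.00484). H2-Q7 (0.38 ± 0.067), H2-T23 (0.25 ± 0.032) and H2-T22 (0.22 ± 0.044) were called as well, with adjusted p from limma of 0.00326, 0.000830 and 0.00577. H2-K1 (0.0061 ± 0.057; limma adjusted p = 0.938), H2-D1 (-0.0083 ± 0.049; limma adjusted p = 0.902) and H2-Q4 (0.050 ± 0.044; limma adjusted p = 0.375) were not. H2-Q2 was at 7.84 ± 0.207 against 1.58 ± 0.110 FPKM, 4.96 times the level (1.78 ± 0.066), and this gap holds its fall in treated B6. The median of the 10 members was 0.27, beside 0.028 for all genes, and it too includes H2-Q2. By TPM, which moved the median of all genes to -0.14, H2-Q6 (0.64) and Tap1 (0.21) were still called, and the other 4 were higher but not called.

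**Figure D2:**
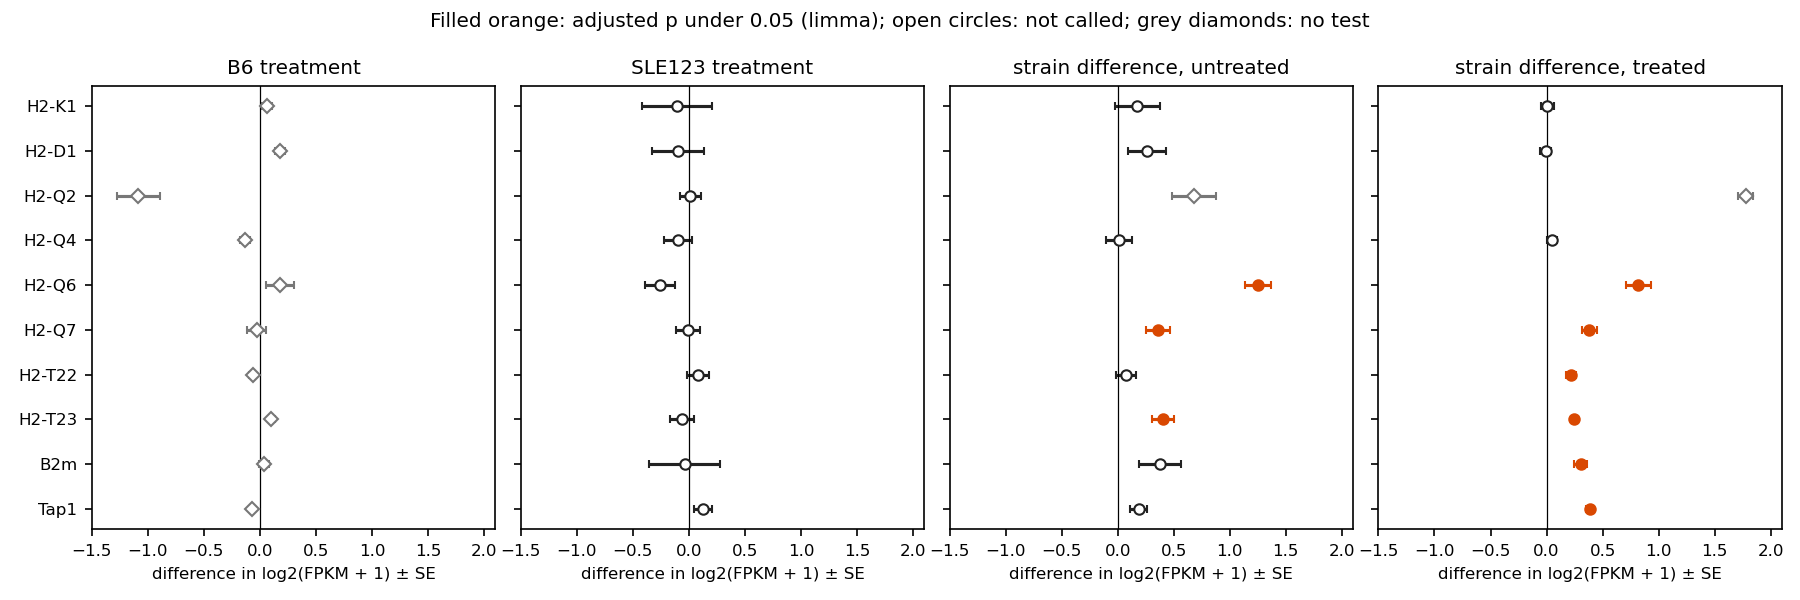
Differences in log2(FPKM + 1) with their SE for the 10 members in the 4 comparisons, each between 3 mice and 3. Filled orange circles are higher with a limma adjusted p under 0.05, open circles are not called, and grey diamonds are values without a test. H2-Q6 is called in both strain comparisons, at 1.25 and 0.82, and no member is called after treatment in SLE123.

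The makeup of the heavy chain pool within each library does not depend on how libraries are scaled to each other. The 8 heavy chains summed to between 4153 and 6016 FPKM. H2-Q6 made up 4.62% to 6.18% of that sum in the 6 B6 mice and 8.43% to 10.4% in the 6 SLE123 mice. H2-K1 made up 48.5% to 50.4% in B6 and 45.2% to 46.9% in SLE123, H2-D1 27.6% to 29.9% and 26.7% to 27.8%, and H2-Q4 5.08% to 6.12% and 4.83% to 4.99%. H2-Q7 (5.36% to 6.35% and 5.56% to 6.86%) and H2-T22 (1.66% to 1.96% and 1.59% to 1.97%) overlapped between the strains. H2-T23 made up 3.49% to 3.72% of the sum in B6 mice and 3.79% to 4.05% in SLE123 mice.

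The ratio of H2-Q6 to H2-Q7 in FPKM was 0.824, 0.920 and 0.836 in untreated B6, 0.915, 1.06 and 1.00 in treated B6, 1.51, 1.67 and 1.61 in untreated SLE123 and 1.28, 1.39 and 1.36 in treated SLE123. SLE123 mice were above B6 mice without overlap, and treated SLE123 mice lay between untreated SLE123 and B6. A ratio shows unequal change, not which of the genes moved, and these are the 2 members whose coding sequences are most alike. B2m over summed heavy chains overlapped between the strains, with 0.426 to 0.470 in the B6 mice and 0.439 to 0.542 in the SLE123 mice.

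**Figure D3:**
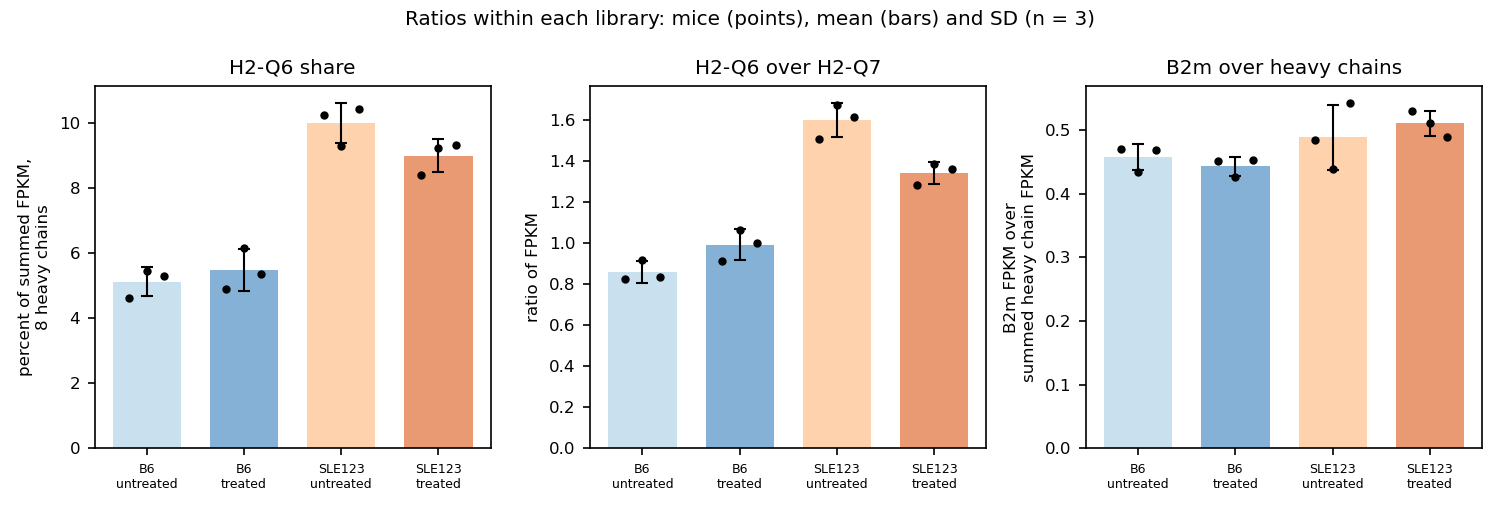
Ratios within each library by strain and treatment: the percent of summed heavy chain FPKM that was H2-Q6, the FPKM ratio of H2-Q6 to H2-Q7, and B2m FPKM over the summed heavy chains, with points for mice, bars for means and whiskers for the SD (n = 3). H2-Q6 over H2-Q7 runs from 0.824 to 1.06 in B6 and from 1.28 to 1.67 in SLE123.

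Plasma cell markers were also higher in SLE123, as was the class II sum in untreated SLE123. The part of both in these differences was not tested. Between treated B6 and treated SLE123 the class II sums overlapped. There H2-Aa (26.4 to 36.1 and 13.1 to 14.7 FPKM) and H2-Eb1 (23.3 to 31.7 and 15.2 to 17.1) were lower in SLE123. Cd74 (73.6 to 101 and 122 to 220) was higher, and H2-Ab1 (30.8 to 41.0 and 19.6 to 33.9) overlapped. The class II sum was 11.2 to 23.1 FPKM in untreated and 154 to 208 in treated B6. It was 170 to 286 in treated and 279 to 1056 in untreated SLE123. In the same order of groups, the plasma cell sum was 31.8 to 50.7, 60.4 to 157, 940 to 1727 and 1803 to 4708 FPKM. H2-Q6 was at 192 to 234, 213 to 294, 413 to 452 and 500 to 560 FPKM in that order. Treated SLE123 replicate 1, the SLE123 mouse with liver transcripts like B6, had 413 FPKM of H2-Q6 and an H2-Q6 to H2-Q7 ratio of 1.28. Both were the lowest of the 6 SLE123 mice and remained above all 6 B6 mice. This mouse also had the lowest immunoglobulin share of the 6, 2.51% of fragments, and the lowest plasma cell sum, 940 FPKM. The part of these RNAs in its values was not tested. Without this mouse, H2-Q6 differed by 0.86 between the treated strains. The 9 interferon response genes, among them Ifit1, Isg15 and Irf7, summed to 102 to 111 FPKM in untreated B6, 127 to 162 in treated B6, 117 to 138 in untreated SLE123 and 169 to 211 in treated SLE123, and their part in the values of the members was not tested.

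By FPKM, most genes that supply and load peptides were higher in SLE123. Of 15 such genes tested, 10 were called higher and 0 lower in untreated SLE123 against untreated B6, and 11 were called higher and 0 lower in treated mice, beside the 22.8% and 29.6% of all genes called higher. Calr, the chaperone calreticulin, was at 376 ± 75.9 FPKM in untreated SLE123 and 191 ± 17.1 in untreated B6, 1.97 times the level (0.96 ± 0.16; limma adjusted p = 0.00284), and at 366 ± 27.6 against 213 ± 9.44 in treated mice. Pdia3, a disulfide isomerase of the loading complex, differed by 0.71 ± 0.11 and 0.54 ± 0.036, and Tapbp, which encodes tapasin, by 0.46 ± 0.10 and 0.37 ± 0.035. Its relative Tapbpl differed by 0.41 ± 0.073 and 0.42 ± 0.053. Psmb9, an immunoproteasome subunit whose gene adjoins Tap1, was at 66.2 ± 5.60 against 47.9 ± 2.61 FPKM in untreated mice (0.46 ± 0.088; limma adjusted p = 0.00566) and at 61.8 ± 0.295 against 42.6 ± 1.10 in treated mice (0.53 ± 0.035; limma adjusted p = 6.74e-05). The chaperone Canx differed by 0.41 ± 0.10 in untreated mice and the proteasome activator subunit Psme2 by 0.28 ± 0.036 in treated mice. The median of the list was 0.39 in untreated and 0.24 in treated mice.

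Calr, Pdia3 and Canx also serve the folding of many secreted proteins. Plasma cell markers were higher in the same libraries, and their part in these differences was not tested. By TPM, Calr was called higher and Erap1 (-0.69; limma adjusted p = 0.00634) lower in untreated mice, and Calr, Pdia3, Psmb9 and Tapbpl were called higher in treated mice, so that the other calls of this list were lost. Even so, 14 and 15 of the 15 stayed above the median of all genes on both scales. After treatment in B6, where 14.9% of all genes were called, 3 of the 15 were called higher: the proteasome activator subunits Psme1 (0.15 ± 0.029; limma adjusted p = 0.0180) and Psme2 (0.19 ± 0.037; limma adjusted p = 0.0207), and Tapbp (0.16 ± 0.035; limma adjusted p = 0.0274). None was called in treated SLE123, with 0 of 15 under an unadjusted p of 0.05 by limma.

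**Figure D4:**
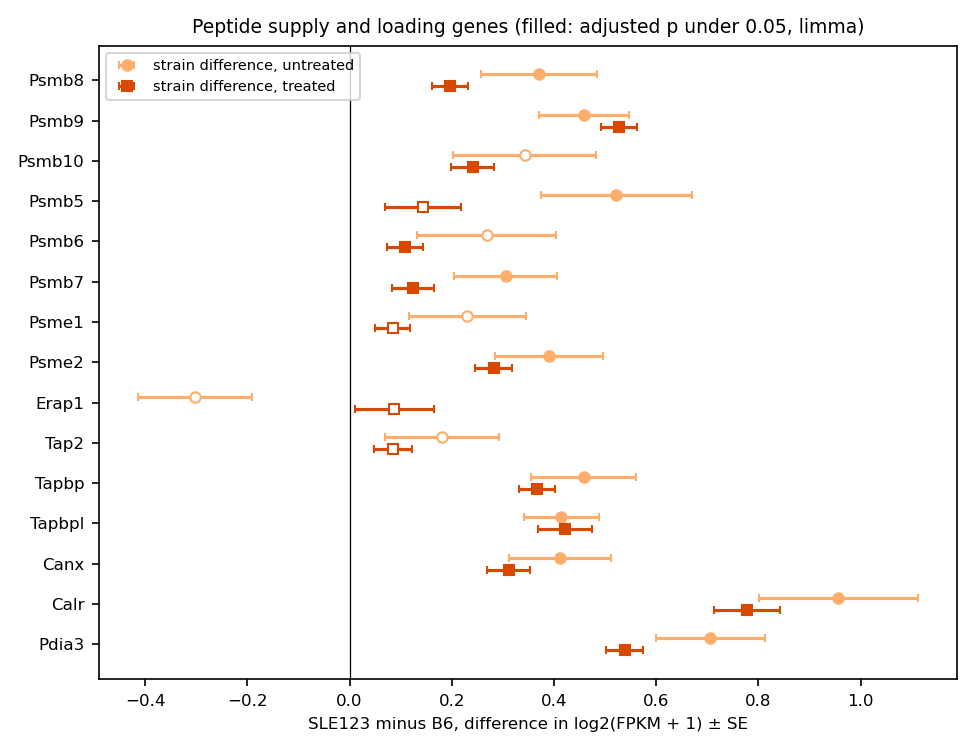
Differences between the strains in log2(FPKM + 1), SLE123 minus B6, for the 15 peptide supply and loading genes, with circles for untreated and squares for treated mice and whiskers for the SE. Filled symbols have a limma adjusted p under 0.05. Calr is farthest to the right, at 0.96 in untreated and 0.78 in treated mice, and Erap1 in untreated mice is the 1 value below 0.

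Of 19 other class I and class I-like heavy chain genes, 10 passed the filter. H2-Q5, listed as a polymorphic pseudogene, was higher in SLE123 in untreated (165 ± 14.8 against 103 ± 4.98 FPKM; 0.67 ± 0.095; limma adjusted p = 0.00163) and in treated mice (0.70 ± 0.11; limma adjusted p = 0.00170). H2-M3, which presents formylated peptides, was higher by 0.38 ± 0.078 and 0.33 ± 0.051, and H2-Q10, at 0.645 to 2.11 FPKM in the 12 mice, by 0.70 ± 0.13 and 0.48 ± 0.086. H2-Q5 and H2-Q10 share stretches of 100 bases with the more abundant H2-Q7. Their values can therefore hold H2-Q7 fragments, and the part of these was not tested. Fcgrt, the neonatal Fc receptor, was called higher in untreated SLE123 (0.60 ± 0.10), and Mr1, which presents vitamin B metabolites (0.63 ± 0.15), in treated SLE123. Cd1d1, a lipid-presenting molecule, was lower in SLE123 by -0.30 in both, and H2-T10 was lower in untreated SLE123 (-0.31 ± 0.094). In all, 4 of the 10 were called higher and 2 lower in untreated mice, and 5 and 2 in treated mice, beside 42.9% and 52.1% of all genes called in either direction. By TPM, which shifts all genes down in these comparisons, H2-Q5 (0.29), H2-M3 (0.0050) and Fcgrt (0.31) were not called in untreated mice, nor were H2-M3 (0.16) and H2-T24 (0.062) in treated mice. The counts on that scale were 1 higher and 3 lower in untreated and 3 higher and 4 lower in treated mice.

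H2-K2, a transcribed pseudogene beside H2-K1, rose with treatment in B6, where H2-K1 stood at 0.061. It was at 106 ± 7.05 FPKM in treated and 75.8 ± 6.03 in untreated B6 (0.48 ± 0.069; limma adjusted p = 0.00795), and at 62.1 ± 3.27 in treated SLE123, below treated B6 by -0.76 ± 0.061 (limma adjusted p = 0.000135). Fcgrt (1.39 ± 0.12; limma adjusted p = 0.00129) and H2-T24 (0.26 ± 0.065; limma adjusted p = 0.0426) were the other genes of this list called in B6 after treatment, all 3 of them higher, where 14.9% of all genes were called. By TPM the call of H2-T24 was lost (0.25; limma adjusted p = 0.0550). In SLE123, 0 of the 10 were called, and 2 had an unadjusted p under 0.05 by limma, Fcgrt (0.62 ± 0.12) and H2-T24 (0.41 ± 0.12). Fcgrt is strongly expressed by macrophages, whose 5 markers summed to 8.16 to 14.3 FPKM in untreated and 38.8 to 113 in treated B6, and their part in its difference was not tested.

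Regulators of class I transcription were called in both directions by FPKM. Of 17, 2 were called higher and 5 lower in untreated SLE123, and 6 higher and 6 lower in treated SLE123, beside 42.9% and 52.1% of all genes called. By TPM, 0 were called higher and 10 lower in untreated and 2 higher and 8 lower in treated mice. The share of all genes called by TPM is not given here. TPM moved the median of all genes to -0.38 in untreated and -0.14 in treated mice. On both scales, 7 of the 17 stood above the median of all genes in untreated and 8 in treated mice. Ifngr2, a chain of the interferon γ receptor, was lower by -1.10 ± 0.18 and -1.07 ± 0.13, and its partner Ifngr1 by -0.34 ± 0.089 and -0.64 ± 0.14. Jak1, a kinase on that receptor, was lower by -0.69 ± 0.15 in untreated mice, as were Rfxank (-0.40 ± 0.097) and Nfyc (-0.29 ± 0.081), subunits of the RFX and NF-Y complexes that bind class I promoters. In treated mice the kinase Jak2 (0.35 ± 0.039), the NF-κB subunit Nfkb1 (0.29 ± 0.038) and the RFX subunit Rfx5 (0.43 ± 0.061) were higher in SLE123. Nlrc5, the activator of class I genes, was at 70.5 FPKM at most. It was 69.9 ± 0.796 in treated SLE123 against 56.9 ± 1.77 in treated B6 (0.29 ± 0.037; limma adjusted p = 0.000734), whereas in untreated mice it was 53.5 ± 10.6 against 57.7 ± 0.773 and was not called. By TPM, Nlrc5 was lower in untreated SLE123 than in untreated B6 (-0.51; limma adjusted p = 0.0388), where the median of all genes was -0.38. By FPKM, Nlrc5 differed by -0.12 there, beside a median of -0.025. In treated mice the calls of Nlrc5 (0.12), Jak2 (0.17) and Nfkb1 (0.11) were lost by TPM. After treatment, Irf2 alone of the 17 was called in B6 (0.16 ± 0.036; limma adjusted p = 0.0327), and 0 of 17 in SLE123, where 2 had an unadjusted p under 0.05 by limma.

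Receptors that read class I were present at low to moderate levels, which is given as a description. Klrd1, which encodes CD94 and pairs with NKG2 chains to bind Qa-1, was at 30.2 to 54.5 FPKM in B6 and 9.53 to 16.5 in SLE123, in the opposite order to H2-T23. Klrc1 was at 4.60 to 18.5 FPKM in B6 and 1.8 to 4.76 in SLE123, Klrc2 at 1.58 to 6.03 and 0.971 to 2.60, and Cd160 at 7.18 to 9.14 and 4.11 to 7.17. Cd8b1 was at 10.9 to 17.4 FPKM in B6 and 3.88 to 7.33 in SLE123. Pirb, an inhibitory class I receptor of myeloid cells, was at 0.130 to 2.53 and 0.291 to 2.61 FPKM.

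The genes whose log2(FPKM + 1) ran most like a member over the 12 mice were listed by Pearson r, as a description. For H2-K1 they were Fam104a (r = 0.97), Ndufa2 (0.97), Sap18 (0.97), Lypla2 (0.97) and Dpy30 (0.96), and the mice shared 1 high library, untreated SLE123 replicate 2. For H2-Q2 they were Dusp6 (0.99), a phosphatase of the MAP kinases that ranged from 10.3 to 24.9 FPKM, Ctc1 (0.97), Ift52 (0.96), Mthfd2 (0.95) and Gins3 (0.95). Among the members themselves, H2-K1 and H2-D1 had r = 0.94, H2-Q6 and H2-Q7 had r = 0.95, and H2-K1 and H2-Q6 had r = 0.56 over the 12 mice. These values reflect the strain and treatment groups as well as the mice within them.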

How the data were processed

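CD4+ T cells of 12 mice were sequenced, and each library was grouped by its title. Base calling with CASAVA 1.8, mapping with STAR and the build mm10 come from the submitters' processing notes. The annotation and counting program are not given in the sources used here. The authors deposited FPKM values, which scale a gene's fragments to its length and to the library total, so a few abundant transcripts lower the rest. The authors compared groups with DESeq2, which was not run here.

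Whole fragments were recovered for 100% of the 23230 genes above 0 (tolerance 0.01), giving 13562933 to 23641603 fragments per library. This precision covers counting error only. A gene was kept at a mean of at least 0.5 FPKM, and log2(FPKM + 1) was tested with limma 3.58.1 (R 4.3.3, eBayes with a trend) on the 6 mice compared, with Benjamini-Hochberg adjustment over 13115 genes and a threshold of 0.05. The fit was tested on simulated data. A fold change on this scale understates changes of low genes.

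The 10 members and the lists of related genes were chosen with earlier results of these data known. Named genes are the members, the called genes of each related list (the 6 with the smallest adjusted p-value where more were called), the receptors, and the 5 genes most correlated with H2-K1 and with H2-Q2. One regulator that the rule names is not reported here. Of the table's identifiers, 34490 of 35275 are in GENCODE M21, and all 10 members have a RefSeq promoter.

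Alternatives changed the pseudocount (0.1), the filter (1 FPKM or none), the scaling (TPM, median centring) or the model (voom on recovered fragments, 1 fit of all 12 mice, replicate number as a block), left out each mouse in turn and, for the heavy chain makeup, fragments in place of FPKM. A rescaling to the fragments outside immunoglobulin genes was chosen after seeing the data.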

Additional observations from a re-analysis of the deposited data

Results flagged for a closer look

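Tap1 and Pirb were singled out because every treated mouse lay on one side of every untreated mouse in B6 and on the opposite side in SLE123. This was looked for in the 10 members, 10 other heavy chains, 15 peptide supply and loading genes, 17 regulators and 6 receptors. The share of all genes that do so was not counted. Without overlap, 19.4% of all genes were higher and 18.6% lower after treatment in B6, and 13.7% and 6.02% in SLE123. The treatment difference of Tap1 was -0.071 in B6 and 0.13 in SLE123 on the log2(FPKM + 1) scale, and that of the myeloid receptor Pirb was 1.12 in B6 and -0.57 in SLE123. The difference between the strains was not tested for either gene. The summed macrophage and monocyte markers were at 8.16 to 14.3 FPKM in untreated and 38.8 to 113 in treated B6, and at 31.2 to 72.8 in untreated and 17.7 to 23.8 in treated SLE123, and their part in the values of Pirb was not tested.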

How the results depend on the processing

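H2-Q6 was called higher in SLE123 under each of the alternatives run in both strain comparisons, and Tap1 in treated mice likewise. Other calls moved. TPM, whose own scale carries the shift of all genes described above, called 1 member in place of 3 in untreated and 2 in place of 6 in treated mice, left 3 of 10 members higher in untreated mice, and called 21 genes after treatment in SLE123 in place of 5, with 9 members higher in place of 3. By TPM the untreated strain differences turned to -0.21 for H2-K1, -0.12 for H2-D1, -0.37 for H2-Q4, -0.023 for H2-Q7, -0.31 for H2-T22, -0.0047 for B2m and -0.19 for Tap1, and those in treated mice to -0.17 for H2-K1 and -0.13 for H2-Q4. The treatment differences in SLE123 turned to 0.086 for H2-K1, 0.098 for H2-D1, 0.095 for H2-Q4, 0.19 for H2-Q7, 0.13 for H2-T23 and 0.15 for B2m. Under median centring H2-Q2 turned to -0.029 after treatment in SLE123 and H2-K1 to -0.031 between treated strains. Without immunoglobulin fragments, 5 members were called in untreated mice, H2-Q2 turned to -0.039 in SLE123, and H2-D1 to 0.053 between treated strains. No filter called 1134 genes after treatment in B6 in place of 1948. A single fit of all 12 mice called 815 genes in B6, 53 in SLE123 and 5 members between untreated strains. The share of all genes called between the strains is not given for TPM, the immunoglobulin rescaling or this single fit. Their counts of members called are therefore not set against it. With voom, 3 genes were called in SLE123. The replicate number as a block called 0 genes in B6, 3414 genes in place of 6836 and 2 members in place of 6 between treated strains, where H2-Q7, H2-T22, H2-T23 and B2m were not called. The labels do not say that the numbers pair the mice. Correlations of same-numbered mice were -0.14 and -0.094 in B6, 0.137, -0.161 and 0.266 in SLE123 and 0.065 and 0.143 between treated strains. These few values, from groups of 3 mice, cannot decide whether mice of the same number are paired. Heavy chain shares by fragments differed from those by FPKM between treated strains for H2-K1 (-0.12), H2-D1 (-0.13) and H2-Q4 (-0.071), as log2 ratios. Where no cause is given above, the cause was not tested.

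Leaving out 1 mouse at a time, treatment calls numbered 675 to 1393 genes in B6 and 1 to 7 in SLE123, where 2 to 8 members were higher, the 8 without untreated SLE123 replicate 2. Between untreated strains, 3672 to 6469 genes and 1 to 4 members were called. Differences near 0 changed sign: after treatment in B6, H2-Q7 ran from -0.10 to 0.033. After treatment in SLE123, H2-K1 ran from -0.18 to 0.012, H2-D1 from -0.16 to 0.024, H2-Q2 from -0.055 to 0.071, H2-Q4 from -0.17 to 0.0091, H2-Q7 from -0.044 to 0.011 and H2-T23 from -0.11 to 0.028. Between untreated strains H2-Q4 ran from -0.092 to 0.084 and H2-T22 from -0.0023 to 0.13, and between treated strains H2-K1 from -0.019 to 0.037 and H2-D1 from -0.030 to 0.020.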
